A study of Mus musculus with 15 samples.

Results

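The 10 genes described here are the epithelial junction and keratin genes Cdh1, Epcam, Cldn3, Cldn4, Cldn7, Cldn18, Krt8, Krt18 and Krt19 together with Sfn, 10 of the 34401 features measured in mouse lung, 19289 of which carried a gene symbol. The set was chosen from the processed signals of these same 15 arrays by diet, so its values are a description and carry no test of their own. Each gene was read by every probe whose RefSeq transcript belonged to its symbol, which was 1 probe with 1 spot per array for each of the 10. The mice were females of the outbred stock Crlj:CD1(ICR), 11 weeks old, and the labels name no transgene, deletion or further agent. They ate powdered diet with permethrin, a synthetic pyrethroid that kills insects through their nerve sodium channels, at 0 (control), 20, 500, 2500 or 5000 ppm for 7 days. Each diet had 3 mice, and each 1-colour Agilent array held Cy3-labelled RNA from the lung of 1 mouse. Levels below are log2 processed signals relative to the 75th percentile of their own array, so 0 is that percentile and 1 unit is a doubling.

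Epithelial cells are joined by adherens junctions, where E-cadherin (Cdh1) binds its like on the next cell, and by tight junctions, where claudins set which ions and solutes pass between cells. Epcam is a surface protein of the same lateral membranes. Simple epithelia hold a keratin filament network in which Krt8 pairs with Krt18, and Krt19 is a further acidic keratin of airway and other ducts. Sfn encodes 14-3-3 sigma, the 14-3-3 protein of epithelial cells, a p53 target that restrains cell division, and in human skin it is known for its part in keratinocyte maturation.

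Upstream sequence was printed for Sfn and for the keratin pair Krt8 and Krt18, the members with the highest Pearson r with Sfn (0.83 and 0.79). A short motif that occurs in all of them was part of the choice, so its presence there is not a result. RefSeq promoter windows of the GRCm38.p6 build were matched for 8 of the 10 genes, none for Cdh1 and Krt19, and gave 10 windows, since Cldn7 and Cldn18 each had 2. Only the 250 bases before the annotated start were used. The capitals mark the E-box CAGGTG or, on the other strand, CACCTG, the motif that the Snail and Zeb repressors of Cdh1 are known to bind. The Sfn window is chr4:133602169-133602418 on the minus strand, that of Krt8 is chr15:102004343-102004592 on the minus strand and that of Krt18 is chr15:102027966-102028215 on the plus strand.
Sfn: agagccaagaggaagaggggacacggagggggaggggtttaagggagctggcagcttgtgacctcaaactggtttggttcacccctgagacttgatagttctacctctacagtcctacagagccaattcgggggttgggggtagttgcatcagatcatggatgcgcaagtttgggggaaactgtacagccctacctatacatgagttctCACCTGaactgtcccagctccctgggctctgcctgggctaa
Krt8: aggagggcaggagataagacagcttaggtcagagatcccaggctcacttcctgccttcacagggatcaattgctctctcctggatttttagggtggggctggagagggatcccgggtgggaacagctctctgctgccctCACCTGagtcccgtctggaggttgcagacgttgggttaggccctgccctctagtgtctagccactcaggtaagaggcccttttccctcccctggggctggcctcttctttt
Krt18: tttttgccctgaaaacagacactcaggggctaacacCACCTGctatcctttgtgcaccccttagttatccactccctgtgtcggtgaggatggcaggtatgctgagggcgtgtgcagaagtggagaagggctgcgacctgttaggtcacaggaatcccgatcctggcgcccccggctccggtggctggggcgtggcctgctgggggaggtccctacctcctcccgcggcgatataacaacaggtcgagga

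The E-box letters lay 36 to 41 bases before the start in Sfn, 106 to 111 bases before it in Krt8 and 209 to 214 bases before it in Krt18. Epcam held the motif at 2 places, Cldn4 at 1 place and the second Cldn7 window at 2 places. These are shown with their flanks so that the differing neighbourhoods can be compared.
Epcam, far copy: gccagtagggccCACCTGctggaggaccgg
Epcam, near copy: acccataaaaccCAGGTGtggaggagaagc
Cldn4: ctttaactgcagCACCTGtggccgcc
Cldn7, far copy: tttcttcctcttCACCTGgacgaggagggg
Cldn7, near copy: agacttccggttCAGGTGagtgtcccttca
In all, 6 of the 10 windows held the E-box, whereas 17.2% of 32851 windows of 250 bases over all genes held it. The Grainyhead-like motif AACCGGTT was in none of the 10 windows and in 0.116% of all windows. The antioxidant response core TGACNNNGC, or GCNNNGTCA on the other strand, was in none of the 10 and in 10.2% of all. The GC box GGGCGG or CCGCCC was in the windows of Cldn3, Cldn4 and Epcam and in the second window of Cldn7, and in 32.7% of all. None of these matches overlapped another. A match is a run of letters and not a measured binding site, and these 10 windows were not a random draw of promoters.

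The tissue label was checked first. Sftpc, the surfactant gene of alveolar type 2 cells, lay between 9.11 and 9.61, Scgb1a1 of club cells between 9.17 and 10.11 and Ager of alveolar type 1 cells between 8.18 and 9.07, all well above background on 15 of 15 arrays. All 10 genes were well above background on every array, except Cldn4 on 14 of 15. Between 70.7% and 87.0% of probes were well above background on an array, and no spot was saturated. Slide 1 held the control and 20 ppm arrays and 500 ppm mice 1 and 2, and slide 2 held 500 ppm mouse 3 and all arrays at 2500 and 5000 ppm, so slide and dose cannot be told apart at the upper doses except through 1 array. A principal component analysis placed 500 ppm mouse 3 and 2500 ppm mouse 3 far out on component 1 (36.48% of variance), and only their files carry an extraction status of 1 and not 0. The 2 measured of 3 thyroid markers, each centred over the 15 arrays, had a mean of 2.1 and 1.0 on these arrays. The other arrays reached at most 0.19. Only 1 of these markers was well above background on all 15 arrays, and the source of this signal was not tested. Component 2 (17.93%) placed control mouse 1 and 20 ppm mouse 1 far out. Results that rest on these 4 arrays are given with and without some or all of them where this was computed. Over all features the median difference from control was -0.03 at 20 ppm, 0.12 at 500 ppm, 0.05 at 2500 ppm and 0.07 at 5000 ppm.

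Sfn was the member whose level separated the upper doses from the rest. Its level was 1.58, 2.17 and 2.24 in the 3 control mice, 2.01, 1.87 and 1.71 at 20 ppm and 1.96, 2.30 and 2.05 at 500 ppm. It was 2.84, 2.5 and 3.34 at 2500 ppm and 3.12, 3.55 and 3.61 at 5000 ppm. All 6 mice at the 2 upper doses lay above all 9 others, while the control, 20 ppm and 500 ppm mice overlapped one another and 2500 ppm mouse 3 lay above 5000 ppm mouse 1. That separation of 6 from 9 was seen in 117 of all features, or 0.34%. The group means were 2.0 ± 0.36 (SD, n = 3) for control, 1.86 ± 0.15 at 20 ppm, 2.10 ± 0.17 at 500 ppm, 2.89 ± 0.43 at 2500 ppm and 3.43 ± 0.27 at 5000 ppm. In order from the highest, the diets were therefore 5000, 2500, 500, 0 and 20 ppm, and the last 3 did not differ beyond their spread. The difference from control was 0.90 ± 0.24 (SE) at 2500 ppm, a fold of 1.86, and 1.43 ± 0.24 at 5000 ppm, a fold of 2.70. At 20 and 500 ppm it was -0.13 and 0.11, both smaller than the same SE.

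The arrays at 2500 and 5000 ppm shared slide 2, and within it the difference of Sfn between these doses was 0.53 ± 0.26. Within slide 1 the differences from control were -0.13 ± 0.22 at 20 ppm and 0.14 ± 0.25 at 500 ppm. The 500 ppm mouse whose array was on slide 2 measured 2.05, inside the range of the slide 1 arrays. That was mouse 3, 1 of the 4 arrays apart, and this 1 value does not by itself tell slide from dose. Without the 4 arrays apart, the 2500 ppm value was 0.46 ± 0.20 in place of 0.90, and the 5000 ppm value was 1.22 ± 0.18. Both 2500 ppm mouse 3, the highest of its diet, and control mouse 1, the lowest control, entered this drop, and the 2500 ppm value was 0.67 without the first alone and 0.69 without the second alone. In bulk lung a higher level can stand for more cells that express the gene or for more RNA in each such cell, and these cannot be told apart.

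**Figure D1:**
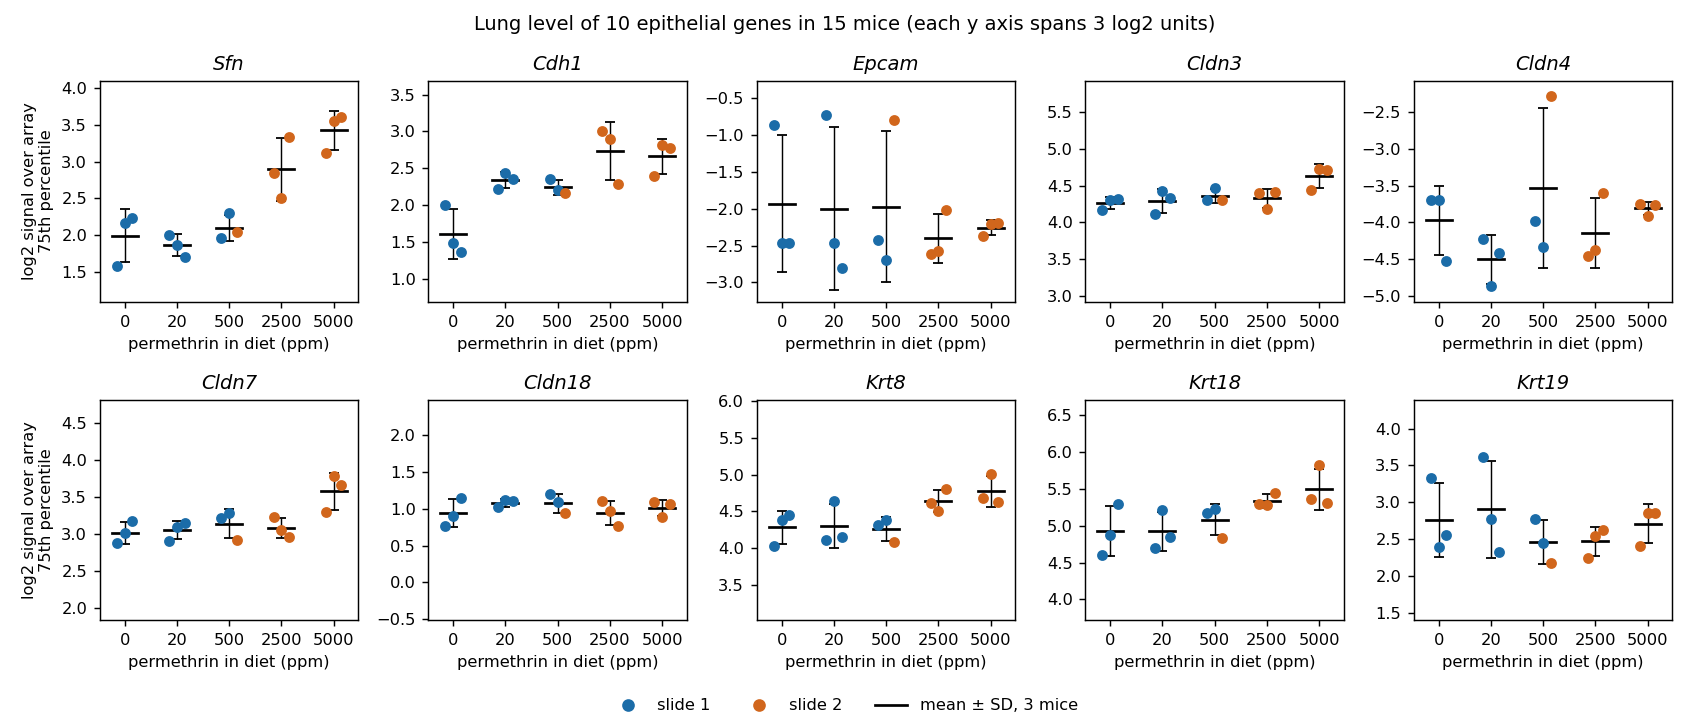
Level of each of the 10 genes (y axes, log2 signal over the 75th percentile of the array, each axis spanning 3 units) in 15 mice by permethrin in the diet (x axes, ppm), with points coloured by slide, the bar at the mean and the whisker at ± SD of 3 mice. Sfn at 2500 and 5000 ppm lies above all other mice, Cdh1 lies lowest in the 3 controls, and Epcam has 3 high arrays in 3 different diets.

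Cdh1, the adherens junction cadherin, differed from Sfn in where its step lay. Its level was 2.0, 1.48 and 1.36 in the controls, 2.22, 2.44 and 2.35 at 20 ppm and 2.36, 2.21 and 2.16 at 500 ppm. It was 3.01, 2.90 and 2.28 at 2500 ppm and 2.39, 2.81 and 2.78 at 5000 ppm. All 12 mice on permethrin lay above all 3 controls, a pattern that 42 features or 0.122% of all shared, and the 4 permethrin diets overlapped in part. The difference from control was 0.73 at 20 ppm, 0.64 at 500 ppm, 1.12 at 2500 ppm and 1.05 at 5000 ppm (SE 0.22 each). The 2 lowest doses were on the controls' own slide apart from 1 mouse, and within slide 1 the values were 0.73 ± 0.21 and 0.68 ± 0.23. Between 5000 and 2500 ppm the value was -0.07 ± 0.22. Without the 4 arrays apart, the differences were 0.98, 0.87, 1.54 and 1.24 in order of dose, since control mouse 1 was the highest control and 2500 ppm mouse 3 the lowest of its diet.

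Epcam, which marks epithelial cells at large, did not follow dose over the 15 mice. It was -0.86, -2.47 and -2.46 in the controls, -0.73, -2.46 and -2.80 at 20 ppm and -2.42, -2.70 and -0.80 at 500 ppm. It was -2.61, -2.58 and -2.02 at 2500 ppm and -2.37, -2.21 and -2.19 at 5000 ppm. The 3 high values were control mouse 1, 20 ppm mouse 1 and 500 ppm mouse 3, which are 3 of the 4 arrays apart, and the other 12 mice lay between -2.80 and -2.02. The Pearson r of Epcam with Sfn was -0.24 over 15 mice and 0.71 over the 11 left without the 4 arrays apart. The difference of Epcam at 5000 ppm was -0.32 ± 0.60, and 0.21 ± 0.13 without the 4 arrays apart. Control mouse 1 by itself turned that sign, since the value was 0.21 without it. In control mouse 1 and 20 ppm mouse 1, genes chosen after their values were seen stood out together with Epcam. Krt7 was 2.63 and 2.72 there against at most 1.5 elsewhere, Lyz2 of macrophages and alveolar type 2 cells was 4.97 and 4.48 against at most 2.76, and H2-DMa of antigen-presenting cells was 1.41 and 1.65 against at most -1.07. Pecam1 of endothelium was 1.15 and 1.19 there against at most -0.42. The part of whatever these arrays share in the Epcam values was not tested.

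Cldn3 and Cldn7, claudins of many simple epithelia, had their highest mean at 5000 ppm. Cldn7 was 2.87, 3.01 and 3.17 in the controls, 2.91, 3.1 and 3.15 at 20 ppm and 3.21, 3.29 and 2.92 at 500 ppm. It was 3.23, 3.05 and 2.96 at 2500 ppm and 3.30, 3.78 and 3.66 at 5000 ppm. All 3 mice at 5000 ppm lay above the controls, as in 12.9% of all features, and above the 2500 ppm mice, as in 8.12%. The lowest of them, 3.30, was only just above the 3.29 of 500 ppm mouse 2, and the 4 other diets overlapped. The difference was 0.56 ± 0.17 from control and 0.50 ± 0.17 from 2500 ppm, the latter within slide 2. Cldn3 was 4.17, 4.30 and 4.32 in the controls and 4.44, 4.73 and 4.71 at 5000 ppm. Its other 9 mice lay between 4.11 and 4.47, so 5000 ppm mouse 1 lay inside that range and the 2 other mice above it. The difference was 0.36 ± 0.14 from control and 0.30 ± 0.14 from 2500 ppm.

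Cldn4 and Cldn18 showed no such pattern. Cldn4, which adjoins Cldn3 on chromosome 5 with no gene starting between them in GRCm38.p6, had group means of -3.98 ± 0.48 in controls, -4.50 ± 0.33, -3.53 ± 1.09, -4.14 ± 0.47 and -3.81 ± 0.09 (SD, n = 3) in order of dose. Its highest value, -2.29, was 500 ppm mouse 3, and the other 14 mice lay between -4.87 and -3.60. Its difference at 5000 ppm was 0.17 ± 0.44. Cldn18 varied least of the 10, from 0.77 to 1.20 over all 15 mice. It is the claudin whose lung isoform belongs to alveolar epithelium, and whether its 1 probe reads that isoform was not checked. Its differences from control were between 0.01 and 0.14 (SE 0.15 each) at the 4 doses, and every diet overlapped the controls.

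The keratin partners Krt8 and Krt18 lie side by side on chromosome 15 with no protein-coding gene starting between them. Krt8 was 4.03, 4.38 and 4.45 in the controls, 4.11, 4.64 and 4.15 at 20 ppm and 4.32, 4.38 and 4.08 at 500 ppm. It was 4.61, 4.51 and 4.8 at 2500 ppm and 4.68, 5.01 and 4.63 at 5000 ppm. All 3 mice at 2500 ppm and all 3 at 5000 ppm lay above the controls, as in 8.83% and 12.9% of all features. However, 20 ppm mouse 2 (4.64) lay among the mice of the 2 upper doses. The difference was 0.35 ± 0.19 at 2500 ppm and 0.49 ± 0.19 at 5000 ppm, or 0.15 ± 0.18 and 0.36 ± 0.17 without the 4 arrays apart. Krt18 was 4.61, 4.88 and 5.29 in the controls and 5.36, 5.82 and 5.31 at 5000 ppm, so that the gap between the highest control and the lowest mouse at 5000 ppm was small. Its difference was 0.41 ± 0.21 at 2500 ppm and 0.57 ± 0.21 at 5000 ppm, and 0.20 ± 0.21 and 0.41 ± 0.19 without the 4 arrays apart.

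Krt19 differed from this pair. It was 3.33, 2.39 and 2.56 in the controls, 3.62, 2.77 and 2.32 at 20 ppm and 2.77, 2.44 and 2.17 at 500 ppm. It was 2.24, 2.54 and 2.62 at 2500 ppm and 2.40, 2.86 and 2.86 at 5000 ppm. The 2 values above 3 were control mouse 1 and 20 ppm mouse 1, the arrays in which Epcam and Krt7 were also high, and the other 13 mice overlapped across diets. Its difference at 5000 ppm was -0.05 ± 0.32, and 0.23 without control mouse 1.

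**Figure D2:**
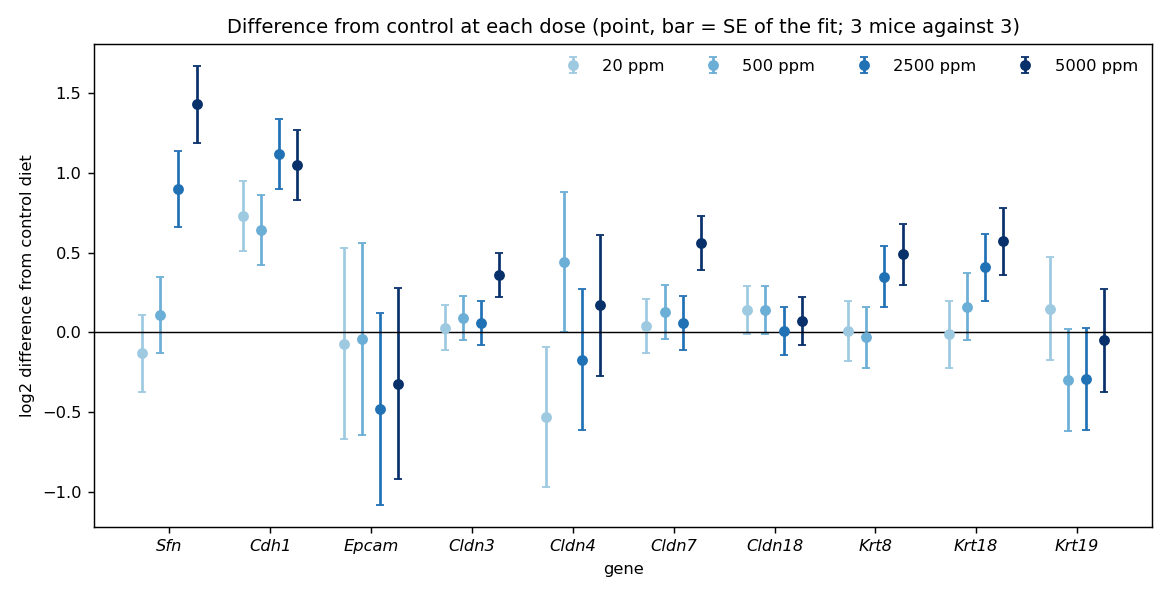
Difference from the control diet (y axis, log2) for each gene (x axis) at 20, 500, 2500 and 5000 ppm, with the point at the limma estimate and the bar at its SE, 3 mice against 3. Sfn reaches 1.43 and Cdh1 1.05 at 5000 ppm, Cldn3, Cldn7, Krt8 and Krt18 lie between 0.36 and 0.57, and Cldn4, Cldn18, Epcam and Krt19 lie within 1 SE of 0 at that dose.

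These values can be read beside the fit over all features, with limma and Benjamini-Hochberg adjustment over 34401 features. At adjusted p under 0.05, 0 features (0%) were called at each of 20, 500 and 2500 ppm and between 5000 and 2500 ppm, where limma gave 509, 977, 2922 and 1733 features at an unadjusted p under 0.05. At 5000 ppm it called 14 (0.0407%), 13 of them higher and 1 lower, and none was a member. On a trend over the 5 dose ranks it called 49 (0.142%), 31 higher and 18 lower, and 1 member was among them, Sfn, with a slope of 0.39 ± 0.05 per rank. That count of 1 dropped to 0 without control mouse 1, control mouse 2, 5000 ppm mouse 2 or 5000 ppm mouse 3, and with slide as a random block, while the slope was 0.35, 0.41, 0.38 and 0.37 without these mice in turn and 0.40 with the block. Cdh1 joined Sfn without 2500 ppm mouse 3.

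At an unadjusted p under 0.05 the fit held 1 of 10 members at 20 ppm and at 500 ppm, Cdh1 in both, against 1.48% and 2.84% of all features. It held Sfn and Cdh1 at 2500 ppm against 8.49% of features, and Sfn and Cldn7 between 5000 and 2500 ppm against 5.04%. At 5000 ppm and on the trend it held the same 6 members, Sfn, Cdh1, Cldn3, Cldn7, Krt8 and Krt18, against 5.14% and 9.22%. By the plainer count of groups that do not overlap, all 3 treated mice lay above all 3 controls for Cdh1 at 20 ppm (1.5% of features) and at 500 ppm (4.53%). They did so for Sfn, Cdh1 and Krt8 at 2500 ppm (8.83%) and for the 6 genes just named at 5000 ppm (12.9%). All 3 mice at 5000 ppm lay above all 3 at 2500 ppm for Cldn3 and Cldn7 (8.12%). No member lay wholly below in any of these comparisons, against 4.34%, 2.15%, 4.72% and 4.99% of features at 20, 500, 2500 and 5000 ppm. Between 5000 and 2500 ppm the share of features wholly below was 7.1%. The members were chosen on these contrasts, so nothing is read from the shares. The median difference over the 10 members was 0.42 at 5000 ppm, with 8 of 10 above 0, beside 0.07 and 60.6% over all features.

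Across the 15 mice, 23 of the 45 pairs of members had a positive correlation and 10 pairs had r over 0.6. The keratin partners Krt8 and Krt18 were closest, with r 0.94 and rho 0.94, and 0.92 within diets after each diet's mean was taken out. Cldn3 and Cldn7 had r 0.90 and 0.72 within diets. Sfn went with Krt8 at r 0.83, with Krt18 at 0.79 and with Cldn3 at 0.75, and within diets at 0.53, 0.45 and 0.61. With Cldn7 it had r 0.69 and 0.32 within diets. With Cdh1 it had r 0.48 over 15 mice but -0.57 within diets. Epcam had r -0.51 with Krt8 and -0.56 with Krt18 over 15 mice, but 0.72 and 0.63 over the 11 mice left without the 4 arrays apart. The points share arrays, slides, scale and diet, so these values describe the 15 arrays.

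**Figure D3:**
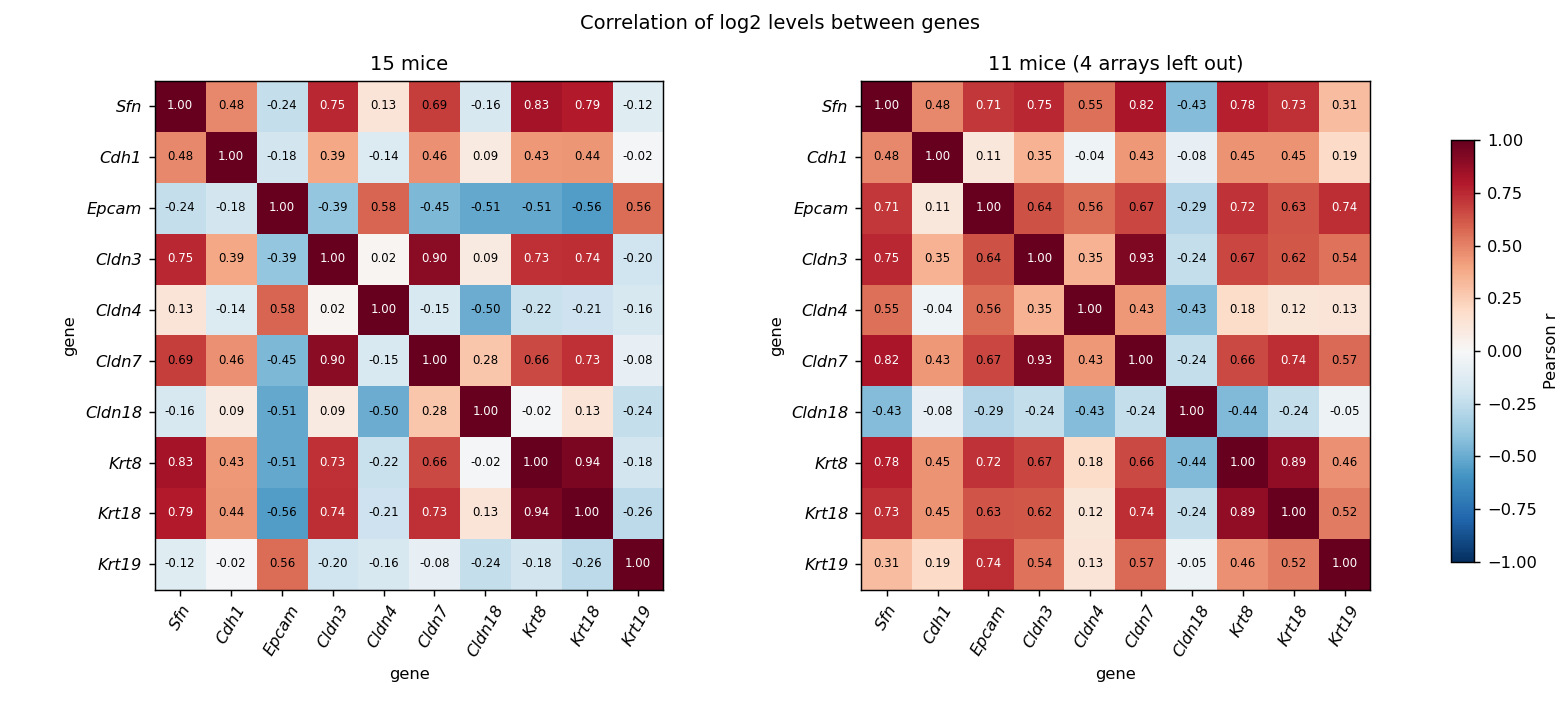
Pearson r between log2 levels of the 10 genes (both axes) over 15 mice on the left and over the 11 mice left without the 4 arrays apart on the right, with colour and number giving r. Krt8 with Krt18 (0.94) and Cldn3 with Cldn7 (0.90) stay high on both sides, and the row of Epcam turns from -0.51 to 0.72 with Krt8.

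The members, and symbols that are bare model names such as Gm or Rik, were left out of the search for genes like Sfn. Krt8 had the highest r of the members with Sfn, 0.83. The 5 genes most like Sfn over the 15 mice were drawn from the 17019 others compared. They were Entpd5, a nucleotide-hydrolysing enzyme of the endoplasmic reticulum (r 0.93, rho 0.85), Aldh3b1, an aldehyde dehydrogenase (0.92 and 0.882), Nqo1, a quinone reductase (0.919 and 0.804), and the glutathione transferases Gstm1 (0.914 and 0.836) and Gsta2 (0.91 and 0.807). Within diets their r with Sfn was 0.419, 0.64, 0.177, 0.525 and 0.153, in that order, so that most of the likeness of Nqo1 and Gsta2 was between diets. Without the 4 arrays apart their r with Sfn lay between 0.924 and 0.95, and Nqo1 and Gsta2 alone kept a place among the 5 highest. Nqo1 was -1.72, -1.66 and -1.78 in the controls and 0.28, 0.49 and 0.71 at 5000 ppm, with no overlap. Gsta2 was -0.35, -0.41 and -0.42 in the controls and 1.79, 2.17 and 2.54 at 5000 ppm, again with no overlap. In the limma fit Nqo1 differed by 2.22 ± 0.21 at 5000 ppm (adjusted p = 0.000963), Gsta2 by 2.56 ± 0.21 (adjusted p = 0.000315) and Entpd5 by 1.23 ± 0.16 (adjusted p = 0.0155). Gstm1 (0.99 ± 0.18, adjusted p = 0.141) and Aldh3b1 (0.61 ± 0.15, adjusted p = 0.449) did not pass. Since these 5 were picked for their likeness to Sfn on the same arrays, their values add no independent evidence about Sfn. The 5 genes most like the mean of the other 9 members were Acsm1, an acyl-CoA synthetase (r 0.821), the porphyrin transporter Abcb6 (0.808), Thnsl2 (0.796), the desmosomal cadherin Dsg2 (0.786) and Calml4 (0.784). Without the 4 arrays apart none of these 5 stayed among the 5 highest, and their ranks were 126, 79, 175, 298 and 19.

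**Figure D4:**
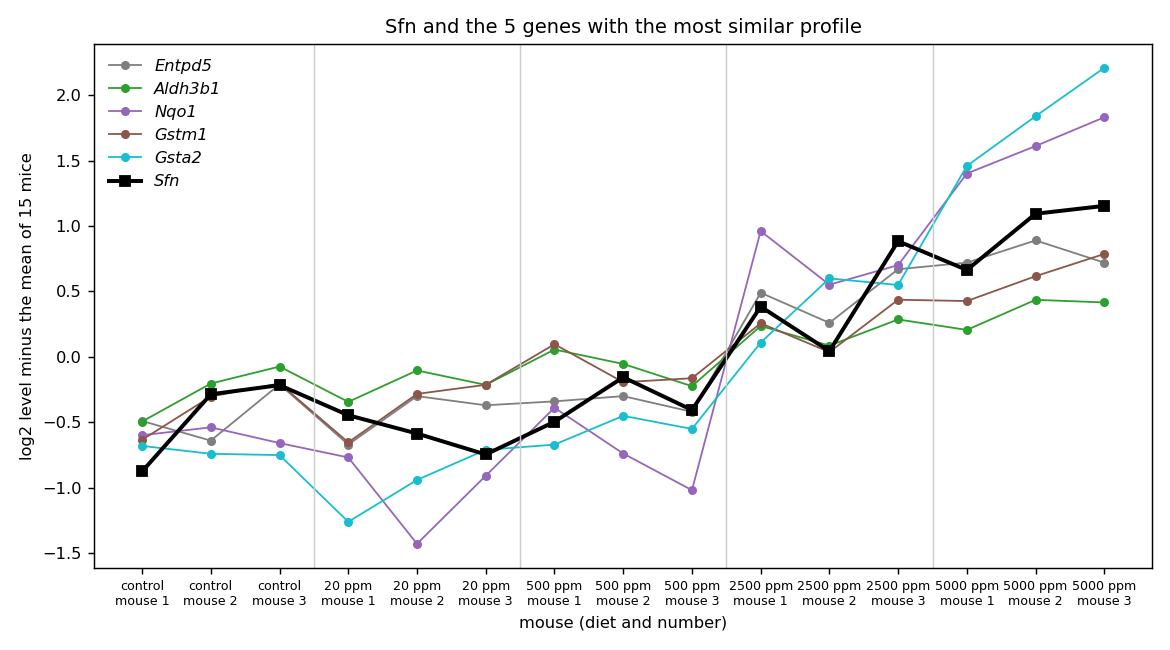
Log2 level minus the mean of 15 mice (y axis) of Sfn (black squares) and of 5 genes in each mouse (x axis, grouped by diet). The 5 had the highest r with Sfn once members and bare model names were left out. Each of the 6 genes has its highest mouse at 5000 ppm, and Gsta2 and Nqo1 span a wider range than Sfn, whose level runs from 1.58 to 3.61.

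Genes of the same structures from longer lists gave no call at any contrast of the limma fit. At 5000 ppm the 15 measured of 16 other adherens junction and desmosome genes had a median of 0.08 with 9 above 0, and the 17 measured of 19 other claudins 0.07 with 13 above 0. The 18 tight junction scaffold and polarity genes had a median of 0.22 with 16 above 0, and the 13 other keratins 0.30 with 11 above 0. None of these 4 lists had a member past the threshold in either direction, and 60.6% of all features lay above 0. The largest differences in them were Cldn22 (1.14 ± 1.43), Krt15 (0.80 ± 1.04), Cldn8 (0.78 ± 0.27), Cdh3 (-0.73 ± 0.50), Krt13 (0.61 ± 0.62), Jup, the junction protein plakoglobin (-0.56 ± 0.48), the scaffold Tjp3 (0.52 ± 0.16) and the tricellular junction gene Ildr1 (0.49 ± 0.20). Jup reached 1.0 and 1.2 in the control and 20 ppm mice numbered 1, and at most -0.31 in the other 13 mice. Without control mouse 1 its difference was -0.01 ± 0.42, and that of Cdh3 was -1.19 ± 0.50.

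The relatives and known regulators of the members gave no call either. The 6 other 14-3-3 genes had a median of 0.17 at 5000 ppm with 5 above 0, led by Ywhae (0.30 ± 0.16) and Ywhaz (0.23 ± 0.18), which were 0.15 and 0.02 without control mouse 1. The 17 measured of 19 epithelial transcription and splicing factors had a median of 0.17 with 14 above 0, led by Esrp2, an epithelial splicing factor (0.52 ± 0.19), and Grhl3, a Grainyhead-like factor (0.46 ± 0.30). The 13 epithelial surface and protease genes had a median of 0.00 with 7 above 0, and Ap1m2, an adaptor subunit of epithelial sorting, had a difference of -0.63 ± 0.72, which turned to 0.25 ± 0.61 without control mouse 1. The 17 p53 targets, the class to which Sfn belongs, had a median of 0.21 with 15 above 0, led by Gdf15 (0.97 ± 0.28) and Cdkn1a (0.57 ± 0.34), the latter 0.35 without control mouse 1. The 16 genes of the transitional alveolar state, in which alveolar cells raise Krt8, had a median of 0.23 with 12 above 0, led by Cdkn2b (0.58 ± 0.20) and Cdkn1a. None of these 5 lists had a gene past the threshold at any contrast in either direction.

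Markers of other epithelia differed between single mice. Krt5, a basal cell keratin, was -3.05, -2.56 and -2.87 in the controls, 0.97 in 2500 ppm mouse 3, -0.71 in 5000 ppm mouse 2 and -2.05 in 500 ppm mouse 2. In the 9 other mice it lay between -3.28 and -2.90. At 2500 ppm the difference from control was 1.01 ± 0.93 for Krt5, 0.08 ± 0.14 for Trp63 and -0.16 ± 0.38 for Krt14. All of these belong to the basal and squamous list, whose 8 measured genes had a median of 0.09 with 6 above 0. Of all features 57.3% lay above 0 there. Trp63 and Krt14 thus did not share the size of the Krt5 difference between these 2 diets. Sfn was 3.34 in 2500 ppm mouse 3 and 3.55 in 5000 ppm mouse 2, the 2 mice highest in Krt5. It was 3.12 and 3.61 in 5000 ppm mice 1 and 3, whose Krt5 levels of -2.93 and -3.02 were inside the range of the controls. In 2500 ppm mice 1 and 2, with Krt5 at -3.28 and -3.15, Sfn was 2.84 and 2.5. The mean centred level of the 8 measured basal and squamous markers of 10 ran from -0.38 to 0.16 in controls, from -0.30 to 0.73 at 2500 ppm and from -0.07 to 0.57 at 5000 ppm. Its highest arrays were 2500 ppm mouse 3 (0.73) and 5000 ppm mouse 2 (0.57), the 2 highest in Krt5, which is 1 of the 8. Sprr3 and Krt1 of that list did not pass the filter, and the 8 others were well above background on all 15 arrays. The 6 ciliated cell markers ran from -0.27 to 0.06 in controls, from -0.01 to 0.79 at 2500 ppm and from -0.19 to 0.41 at 5000 ppm, with 2500 ppm mouse 3 and 5000 ppm mouse 2 highest. The 5 club cell markers ran from -0.71 to 0.38, from -0.72 to 1.52 and from -0.27 to 1.05 in the same 3 diets. The 8 alveolar type 2 markers ran from 0.04 to 0.16 in controls, from -0.14 to -0.11 at 2500 ppm and from -0.04 to 0.07 at 5000 ppm. All 3 mice at 2500 ppm thus lay below the controls on this list, as did all 3 at 500 ppm (-0.13 to 0.03). At 2500 ppm 0 of its 8 genes had a difference above 0 (median -0.18), beside 57.3% of all features. The 9 alveolar type 1 markers ran from -0.32 to 0.20 in controls, from -0.17 to 0.09 at 2500 ppm and from -0.07 to 0.21 at 5000 ppm. The 6 endothelial markers ran from -0.07 to 0.41, from -0.27 to -0.04 and from -0.33 to 0.07 in the same 3 diets. Other lists were as uniform at 2500 ppm. There 0 of 6 endothelial markers had a difference above 0, against 6 of 6 ciliated and 5 of 5 fibroblast markers. Over 15 mice Sfn had r 0.61 with the ciliated list, 0.49 with the basal list and 0.40 with the club list. It had r -0.45 with the alveolar type 2 list, 0.18 with the alveolar type 1 list and -0.66 with the endothelial list. These r were not computed without the 4 arrays apart. Control mouse 1 (0.41) and 20 ppm mouse 1 (0.45) were highest on the endothelial list, and 2500 ppm mouse 3 (0.79) on the ciliated list. The part of these cell types in the levels of the members was not tested beyond the values given.

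**Figure D5:**
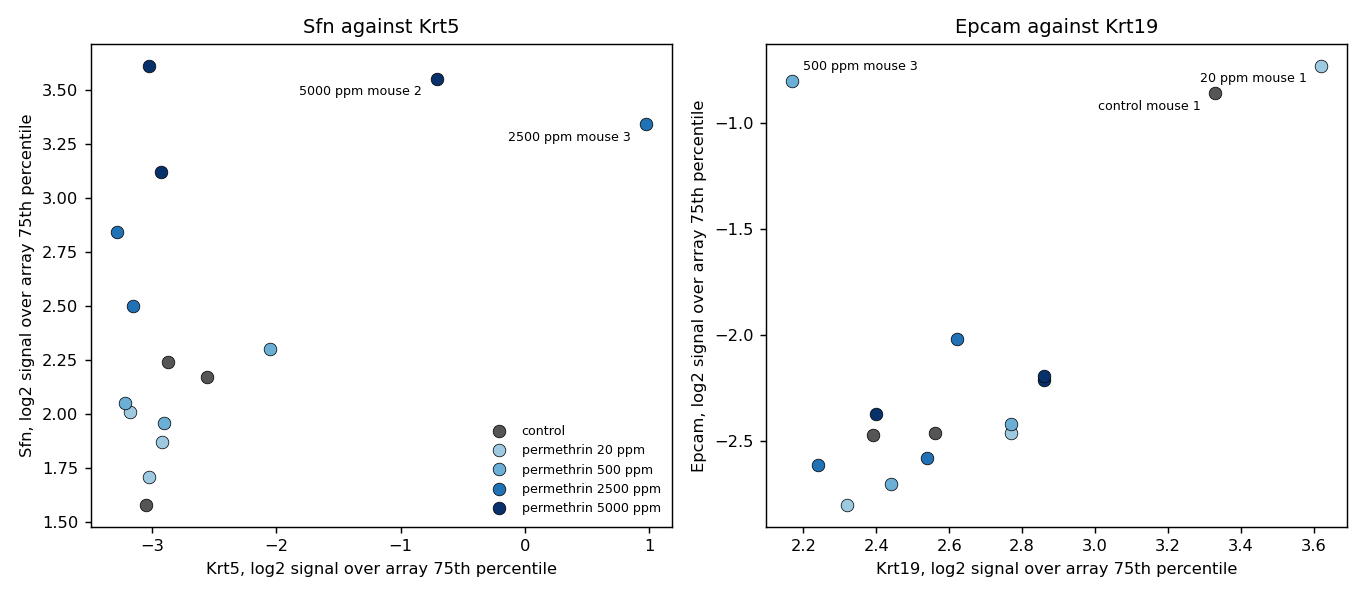
Left, level of Sfn (y axis) against that of Krt5 (x axis), and right, level of Epcam against that of Krt19, both as log2 signal over the 75th percentile of the array, 1 point per mouse coloured by diet. Krt5 is high in 2500 ppm mouse 3 (0.97, with Sfn at 3.34) and 5000 ppm mouse 2 (-0.71, with Sfn at 3.55). Sfn is 3.61 in 5000 ppm mouse 3 with Krt5 at -3.02. Epcam is high in 3 arrays from 3 diets.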

How the data were processed

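Arrays were scanned with 1 colour and read with Agilent Feature Extraction 10.7.3.1, per the file headers, and the deposited scanner files give linear intensity per spot, as a processed signal after background subtraction and as median pixel values of spot and background. The authors' deposited table of log2 values differed from log2 of the processed signal by 1 constant per array. Control spots and outlier flags were left out, 56605 probes were scaled to the 75th percentile of their array, and 43154 were kept that were well above background in at least 50% of spots on all 3 arrays of a diet. Probes were named through RefSeq accessions in a GRCm38.p6 table (34675 with 1 symbol, 21930 with none), and the file headers give mm9 for probe positions. A gene was read by its kept probe with the highest mean. Differences were fitted with limma 3.58.1 in R 4.3.3 over all 15 arrays, 1 coefficient per diet, two-sided, with Benjamini-Hochberg adjustment. The fit was first tested on simulated data. The members and lists were chosen with earlier results of these data known. From each list the text names the genes past the threshold or, where none passed, the 2 with the largest difference at 5000 ppm. Of genes alike to Sfn or to the mean of the other members, with members and bare model names left out, it names the 5 with the highest r. 1 gene so named is not reported here. Mice with the same number in control and 20 ppm deviated together (r 0.611, 0.260 and 0.165), as did those at 500 and 2500 ppm (0.382, 0.289 and 0.475). Control mouse 2 with 20 ppm mouse 3 (0.373) and control mouse 3 with 20 ppm mouse 2 (0.375) did so too, so these values do not show that the number is what the mice share. The labels do not say what a number marks. Alternatives were the background correction, the scale, the filter, the probe rule, the deposited values, the replicate or slide as a block, only the groups compared, and arrays left out. Normexp, with an offset of 50, used median signals, since the files hold no mean signals. The number of arrays limits the precision of every value.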

Additional observations from a re-analysis of the deposited data

How the results depend on the processing

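Leaving out each mouse in turn gave 0 to 1 features at 500 ppm (0 with all mice), 0 to 46 at 2500 ppm (0), 5 to 20 at 5000 ppm (14), 0 to 9 between 5000 and 2500 ppm (0) and 14 to 76 on the trend (49), and 0 at 20 ppm throughout. Members called ranged from 0 to 1 at 2500 ppm (Cdh1 without 2500 ppm mouse 3), 0 to 1 at 5000 ppm (Sfn without the same mouse) and 0 to 2 on the trend. With the replicate block, 1 feature passed at 2500 ppm and 1 between 5000 and 2500 ppm, and no other count moved by over 1.5 times. A fixed slide block, estimated from the single split diet through 500 ppm mouse 3, gave 5055 features and 1 member (Cldn4, lower) at 2500 ppm, 4952 and 2 (Cldn4, lower, and Sfn) at 5000 ppm and 5494 and 2 (the same genes) on the trend. As a random block (correlation 0.262) it gave 5 at 5000 ppm, 5 on the trend and 0 members there. Within slide 1 the count at 500 ppm was 1. The array median as the scale gave 4, 5 and 9 features at 500, 2500 and 5000 ppm. Normexp gave 1 at 2500 ppm and 1 between the upper doses, only the groups compared gave 4 at 2500 and 9 at 5000 ppm, and no filter gave 30 on the trend. Without control mouse 1 and 20 ppm mouse 1 there were 7 features at 20 ppm, 6 at 5000 ppm and 14 with 0 members on the trend. Without 500 ppm mouse 3 and 2500 ppm mouse 3 there were 126 with 1 member (Cdh1) at 2500 ppm, 33 with 1 (Sfn) at 5000 ppm, 11 between the upper doses and 127 with 2 (Cdh1 and Sfn) on the trend. Without all 4 arrays apart, an alternative added after seeing the data, there were 15 at 20 ppm, 274 with 1 member (Cdh1) at 2500 ppm, 944 between the upper doses and 122 with 2 members on the trend. The causes of these shifts were not tested. Sfn, Cdh1, Cldn3, Cldn7, Krt8 and Krt18 stayed above control at 5000 ppm in all 30 alternatives, from 0.21 for Cldn3 under quantile normalization to 1.59 for Sfn without 5000 ppm mouse 1. Many of the 30 could not move this difference. They left out a mouse of another diet, kept only the groups compared, or changed the filter, the probe rule or the replicate block. Counts out of all alternatives at 5000 ppm therefore overstate how often the sign was put to a test. The sign at that dose turned in 3 of 30 alternatives for Epcam, 3 of 29 for Cldn4, 3 of 30 for Cldn18 and 6 of 30 for Krt19. Under the fixed slide block Epcam was -2.08 and Cldn4 -1.69 there. With the array median as the scale, Sfn (-0.12), Cldn3 (-0.14), Cldn7 (-0.10), Cldn18 (-0.09) and Krt18 (-0.07) lay below control at 500 ppm.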

Other observations

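Cldn22, the list member with the largest difference at 5000 ppm among the other claudins, followed single mice and not diets. Its level was -0.92 in 500 ppm mouse 2, -0.14 in 2500 ppm mouse 3 and 0.06 in 5000 ppm mouse 2, and at most -2.19 in the 12 other mice. The fat cell genes Adipoq and Plin1 were highest in the same 3 mice, Adipoq at 2.46, 1.83 and 2.16 against at most -0.26 elsewhere, and Plin1 at 0.05, -0.58 and -0.47 against at most -2.18. Krt5 was highest in these 3 mice as well, at -2.05, 0.97 and -0.71. Sfn was 2.30, 3.34 and 3.55 in them, the highest of its diet in the first and second and the middle value in the third. What these 3 arrays share was not tested.

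Krt13, a keratin of squamous epithelium, was -1.03 in 500 ppm mouse 3 and between -4.05 and -2.56 in the 14 other mice. The array of that mouse also held the highest Cldn4 level, -2.29, and the lowest Krt19 level, 2.17.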
